A study of Homo sapiens with 8 samples.

Results

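The genes described here are 8 negative feedback regulators of the ERK (extracellular signal-regulated kinase) pathway: the dual-specificity phosphatases DUSP4, DUSP5 and DUSP6, the Sprouty genes SPRY1, SPRY2 and SPRY4, and the Sprouty-related genes SPRED1 and SPRED2. They were chosen by name, with earlier results of these data known. Each was read from the probe set with the highest mean over the 8 arrays among those annotated to 1 gene symbol. The 8 genes are 8 of 18244 measured genes, and all 8 passed the filter on dim genes that 11926 genes passed. The array carried 21 probe sets for them.

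ERK sits at the end of a kinase cascade that runs from receptors such as EGFR through RAS, RAF and MEK. Active ERK enters the nucleus and induces, among other genes, proteins that shut the cascade down again, so their RNA is widely used as a readout of how active the pathway is. DUSP4 and DUSP5 remove phosphate from MAP kinases in the nucleus, DUSP6 does so for ERK in the cytoplasm, Sprouty proteins restrain signalling between receptor and RAF, and SPRED proteins bring neurofibromin to RAS.

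RNA from 2 human lung adenocarcinoma lines was hybridised to 8 arrays, 1 for each combination of line, culture and treatment, so no condition had a replicate. HCC827 carries an activating EGFR mutation per the labels, and A549 does not. Cells were grown either in 3D on a collagen scaffold for 14 days from 100000 cells, or in 2D in dishes for 7 days from 200000 cells. Gefitinib, which blocks the kinase activity of EGFR, was given at 1 µM to the treated cultures and withheld from the controls. In 3D gefitinib was given from day 11 for 3 days. A start after 4 days was read as the 2D start, because the label that gives it names 3D a second time, and the length of 2D treatment is not stated. Each line was thus read on 4 arrays: 3D with gefitinib, 3D without, 2D with gefitinib and 2D without. Each line is a single established line, and no label says how many cultures went into 1 array. RNA of the 3D cultures was lysed with beads and purified with a different column kit from that of the 2D cultures, so culture and RNA preparation cannot be told apart.

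Values are log2 signals after robust multi-array averaging (RMA), so a difference of 1 is a doubling, and array medians lay between 7.27 and 7.34. Of the genes read as checks of the lines, EGFR read 10.40 to 11.66 in HCC827 and 8.21 to 8.66 in A549, and CDKN2A, a cell cycle inhibitor gene that A549 lacks, read 12.45 to 13.17 in HCC827 and 6.52 to 6.85 in A549. VIM, a mesenchymal filament gene, read 9.06 and 9.42 in HCC827 3D, 10.71 in HCC827 2D labelled gefitinib and 12.60 in HCC827 2D labelled control, against 12.75 to 13.32 in A549. For VIM the HCC827 2D control array thus stood apart from the other HCC827 arrays. All 5 epithelial markers read above the array medians (7.72 to 14.54), with EPCAM lowest at 7.90 and 7.72 in the A549 3D arrays. Of 5 fibroblast, 4 endothelial and 3 leukocyte markers measured, LUM, a fibroblast marker, read 8.47 in the HCC827 2D array labelled gefitinib and 9.93 in its control, and the leukocyte marker CD14 stood at 6.35 to 6.71 in HCC827 and 8.12 to 8.30 in A549. All the others lay at or below 7.99. The actin control probe sets, whose signal nearer the 3' end minus that nearer the 5' end grows as RNA is shortened, differed by 2.64 (gefitinib) and 2.34 (control) in HCC827 3D and by 1.74 and 1.67 in A549 3D, but by -0.14 to -0.05 in the 4 2D arrays.

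Promoter windows from RefSeq (GRCh38.p14), from 250 bases before to 50 bases after a transcript's start, were present for 6 of the 8 genes, in 10 windows. Those of DUSP6 and SPRED2, which had the widest ranges over the HCC827 arrays, and of SPRY2, which had the narrowest, are shown because these genes mark the ends of the response described below. All 3 lie on the minus strand and read 5′ to 3′: DUSP6 at chr12:89352452-89352751, the first of 2 SPRED2 windows at chr2:65432550-65432849, and the first of 3 SPRY2 windows at chr13:80341077-80341376. Capitals mark matches to CCGGAA (the core bound by ETS factors) or TGACG (a partial cyclic AMP response element), each searched on both strands.
DUSP6: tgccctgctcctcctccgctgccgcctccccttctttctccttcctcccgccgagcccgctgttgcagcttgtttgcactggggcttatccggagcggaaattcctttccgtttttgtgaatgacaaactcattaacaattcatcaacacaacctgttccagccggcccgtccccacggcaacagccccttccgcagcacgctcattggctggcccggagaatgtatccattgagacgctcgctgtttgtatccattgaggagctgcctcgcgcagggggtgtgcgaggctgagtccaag
SPRED2: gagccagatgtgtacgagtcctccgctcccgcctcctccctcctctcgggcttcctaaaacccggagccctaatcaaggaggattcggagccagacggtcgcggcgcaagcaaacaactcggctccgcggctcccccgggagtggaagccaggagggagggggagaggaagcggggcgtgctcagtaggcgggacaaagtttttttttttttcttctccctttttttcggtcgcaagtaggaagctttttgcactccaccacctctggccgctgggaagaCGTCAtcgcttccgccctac
SPRY2: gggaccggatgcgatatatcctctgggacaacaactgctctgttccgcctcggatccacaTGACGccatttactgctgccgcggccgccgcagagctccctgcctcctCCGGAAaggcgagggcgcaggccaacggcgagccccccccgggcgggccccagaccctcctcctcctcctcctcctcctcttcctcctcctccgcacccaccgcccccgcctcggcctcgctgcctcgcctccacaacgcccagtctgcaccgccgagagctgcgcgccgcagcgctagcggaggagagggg
The ETS core, on either strand CCGGAA or TTCCGG, was found in 2 of the 10 windows (1 each of SPRY1 and SPRY2), and in 17.2% of all 35116 windows. TGACG or CGTCA was found in 3 of the 10 (1 each of SPRY2, SPRY4 and SPRED2) and in 24.6% of all windows. The full element TGACGTCA, which contains it, was found in 0 of the 10 and in 1.85% of all windows. The AP-1 motif TGANTCA was found in 1 of the 10 (the second SPRED2 window) and in 7.71% of all windows. The DUSP6 window, 58.3% G and C, held none of the 4 motifs. The SPRY2 window, 71.0% G and C, held the ETS core 142 bases before the start. The same SPRY2 window held TGACG 190 bases before the start, and the SPRED2 window shown held CGTCA 31 bases after it. A match is a description of letters, and nothing follows from a missing match.

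Gefitinib in HCC827 3D cultures went with lower RNA of 7 of the 8 regulators, all but SPRY2, where 20.4% of all tested genes fell. DUSP6 fell the furthest of all 11926 genes tested. The pair labelled gefitinib and control in HCC827 2D cultures ran the other way. There the same 7 genes were higher in the array labelled gefitinib, as were 9.96% of all tested genes. DUSP6 was the highest of all 11926 differences. In A549 none of the 8 passed the test, and neither did any other tested gene. The labels of the 2D pair are kept here as given. Whether they are right was not tested, so the comparison of the lines is given with these 2D arrays and, in 3D only, without them.

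**Figure D1:**
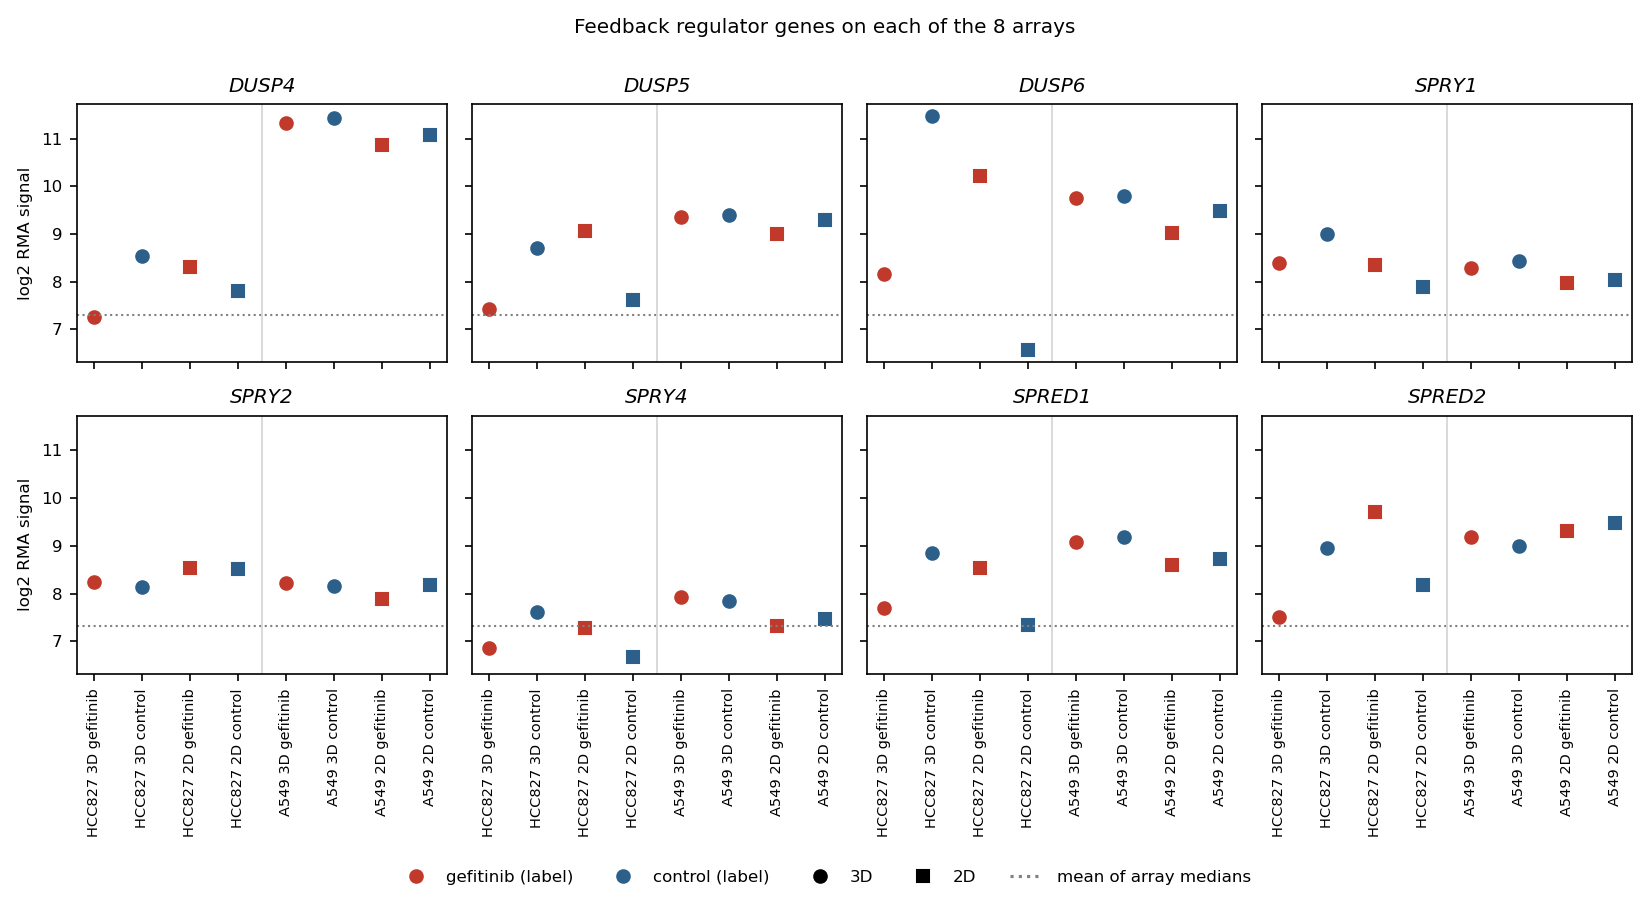
Log2 RMA signal of each of the 8 genes (panels, y axis) on each of the 8 arrays (x axis), with gefitinib-labelled arrays in red, control-labelled arrays in blue, circles for 3D, squares for 2D and a dotted line at the mean array median. The HCC827 values of DUSP6 run from 6.57 (2D labelled control) to 11.48 (3D control), and its A549 values stay between 9.02 and 9.81.

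DUSP6, the cytoplasmic ERK phosphatase, read 8.16 in HCC827 3D gefitinib against 11.48 in HCC827 3D control, a difference of -3.32 ± 0.15 (SE; limma adjusted p = 1.51e-06). In HCC827 2D it read 10.21 in the array labelled gefitinib against 6.57 in the array labelled control, a difference of 3.64 ± 0.15 (limma adjusted p = 9.91e-07). The 4 HCC827 values thus spanned 4.91, with the extremes in the 2 control-labelled arrays. In A549 DUSP6 read 9.75 with gefitinib against 9.81 without in 3D, and 9.02 against 9.48 in 2D. The A549 range of 0.79 lay inside the HCC827 range, and the A549 estimate was -0.26 (95% interval -0.49 to -0.03, adjusted p = 0.364). All 4 DUSP6 probe sets moved alike, with 3D differences in HCC827 of -3.32 to -2.25 and 2D differences of 2.74 to 3.83.

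The standard errors and adjusted p-values in this text come from a limma fit in which each HCC827 array has its own mean, so that the scatter is read from A549 alone, as the change of its gefitinib effect between cultures (1 residual degree of freedom and 9.06 from the prior over genes). HCC827 arrays are taken to scatter like A549 arrays, and the number of arrays limits the precision. With 1 array in each condition, the p-values do not measure the scatter between separate HCC827 cultures. In bulk samples, fewer cells of a kind and less RNA per cell cannot be told apart.

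The nuclear phosphatases moved with DUSP6 by smaller amounts. DUSP4 read 7.26 in HCC827 3D gefitinib against 8.53 in its control (-1.27 ± 0.12, limma adjusted p = 5.98e-05), and 8.31 in HCC827 2D labelled gefitinib against 7.80 in its control (0.51 ± 0.12, adjusted p = 0.0131). DUSP5 read 7.43 against 8.72 in HCC827 3D (-1.28 ± 0.13, adjusted p = 0.00011), and 9.05 in the 2D array labelled gefitinib against 7.62 in the control (1.44 ± 0.13, adjusted p = 4.24e-05). For DUSP5 the 2D and 3D differences were of similar size and opposite sign, whereas for DUSP4 the 3D difference was the larger. Each of these phosphatases had only 1 probe set. In A549 DUSP4 read 11.33 and DUSP5 9.36 with gefitinib in 3D, against 11.43 and 9.40 without, and 10.87 and 8.99 with gefitinib in 2D, against 11.07 and 9.29 without. Neither A549 difference passed the test (DUSP4 -0.15, adjusted p = 0.481; DUSP5 -0.17, adjusted p = 0.479).

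Among the Sprouty genes, SPRY1 and SPRY4 moved in HCC827 and SPRY2 did not pass. SPRY1 read 8.40 in HCC827 3D gefitinib against 9.00 in its control (-0.60 ± 0.12, limma adjusted p = 0.00545), and 8.35 in HCC827 2D labelled gefitinib against 7.88 in its control (0.47 ± 0.12, adjusted p = 0.0206). SPRY4 read 6.87 against 7.61 in HCC827 3D (-0.74 ± 0.13, adjusted p = 0.00289), and 7.29 in the 2D array labelled gefitinib against 6.68 in the control (0.61 ± 0.13, adjusted p = 0.00892). Its HCC827 values lay below the array median on 3 of 4 arrays, and its other probe sets differed by -0.07 and -0.34 in the 3D pair and by 0.01 and 0.05 in the 2D pair, so the SPRY4 calls rest on 1 of 3 probe sets. SPRY2, read by 1 probe set, stood at 8.24 in HCC827 3D gefitinib against 8.13 in its control, and at 8.53 in both HCC827 2D arrays. Its estimates were 0.10 (95% interval -0.22 to 0.42, adjusted p = 0.635) in 3D and 0.00 (-0.31 to 0.32, adjusted p = 0.989) in 2D. The lower end of the 3D interval, -0.22, lies above the estimate for SPRY1, the smallest of the 7 falls, but p-values of this size do not show that SPRY2 was unaffected.

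The A549 arrays held the Sprouty genes within narrow ranges. SPRY1 read 8.30 with gefitinib against 8.43 without in A549 3D, and 7.98 against 8.04 in 2D. SPRY2 read 8.22 against 8.16 in 3D and 7.89 against 8.18 in 2D, and SPRY4 read 7.94 against 7.84 in 3D and 7.32 against 7.46 in 2D. The ranges over 4 arrays in HCC827 and in A549 were 1.12 and 0.45 for SPRY1, 0.40 and 0.32 for SPRY2, and 0.93 and 0.62 for SPRY4, and none of the 3 passed the gefitinib test in A549.

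Both SPRED genes, which restrain RAS, moved by more than a doubling on the chosen probe set. In the 3D pair their other probe sets moved by less, at most -0.81 for SPRED1 and -0.51 for SPRED2. SPRED1 read 7.71 in HCC827 3D gefitinib against 8.86 in its control (-1.15 ± 0.12, limma adjusted p = 0.000116), and 8.55 in HCC827 2D labelled gefitinib against 7.34 in its control (1.21 ± 0.12, adjusted p = 7.32e-05). SPRED2 read 7.51 against 8.96 in HCC827 3D (-1.45 ± 0.14, adjusted p = 6.99e-05), and 9.72 in the 2D array labelled gefitinib against 8.17 in the control (1.55 ± 0.14, adjusted p = 3.69e-05). Both thus resemble DUSP5 in size and in sign. All 5 SPRED1 probe sets were below 0 in the 3D pair (-1.15 to -0.27) and above 0 in the 2D pair (0.46 to 1.21), as were all 3 of SPRED2 (-1.45 to -0.42, and 0.46 to 1.55). In A549 SPRED1 read 9.09 with gefitinib against 9.18 without in 3D, and 8.60 against 8.74 in 2D. SPRED2 read 9.18 against 9.00 in A549 3D and 9.32 against 9.47 in A549 2D. The A549 pairs of SPRED2 thus ran opposite ways by small amounts (0.18 and -0.15), and neither gene passed the test in A549.

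**Figure D2:**
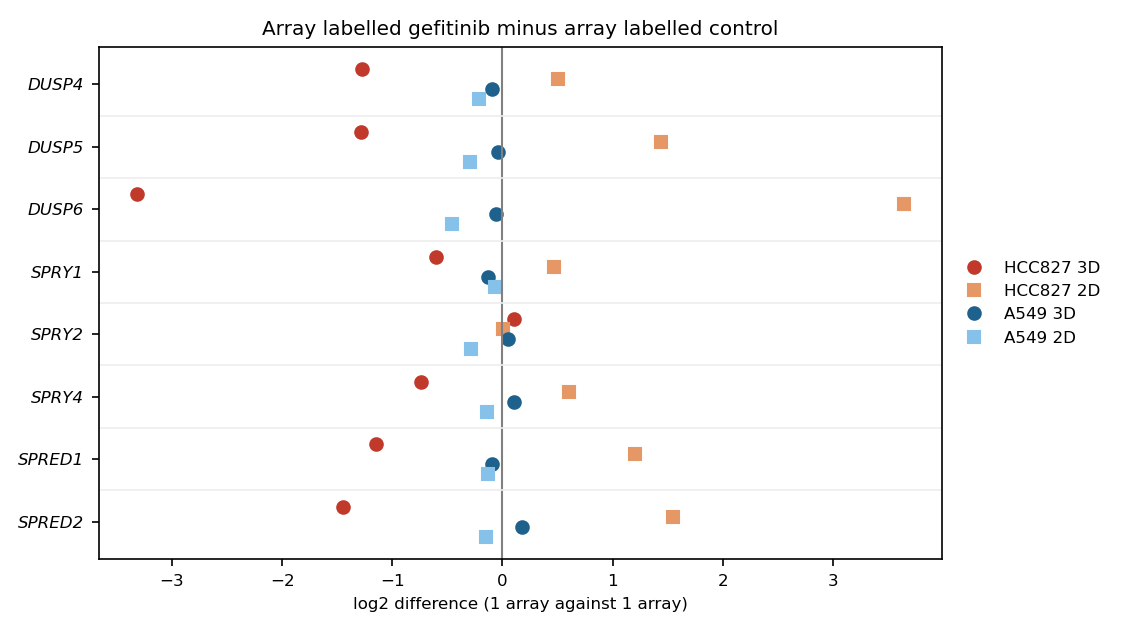
Gefitinib minus control (x axis, log2 difference) for each of the 8 genes (y axis) in the 4 pairs of 1 array each, HCC827 3D, HCC827 2D as labelled, A549 3D and A549 2D. The HCC827 differences of DUSP6 reach -3.32 and 3.64, and the A549 differences of all 8 genes lie between -0.46 and 0.18.

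Counted over the 8 genes, 7 fell with gefitinib in HCC827 3D, where 20.4% of all tested genes fell. In HCC827 2D as labelled, 7 were higher in the gefitinib array, where 9.96% of all tested genes were. The combination of a fall in 3D and a rise in 2D, both past the test, was shared by 7 of the 8 and by 6.67% of all tested genes. Genes and model were chosen with earlier results of these data known, in which ERK target genes ran opposite ways in the HCC827 pairs. The shares are thus a description. The median difference of the 8 was -1.21 in HCC827 3D (all tested genes -0.11) and 0.91 in HCC827 2D (all tested genes -0.05). A difference of 1 or more was reached downward by 5 of the 8 in HCC827 3D (3.15% of all tested genes) and upward by 4 of the 8 in HCC827 2D (2.36%). Each HCC827 array has its own mean in the fit, so leaving out the other HCC827 pair cannot change these differences. Such a fit is therefore no further check of the calls. Over the 21 probe sets, 20 were below 0 in the 3D pair and 21 were above 0 in the 2D pair, the least by 0.0041. Of all 11926 tested genes, 7742 were below 0 in the 3D pair and 4989 above 0 in the 2D pair. Probe sets of 1 gene are not separate samples, and the SPRY1 probe sets not chosen read the same on every array. RNA integrity also differed within the HCC827 3D pair: the actin 3' minus 5' difference was 2.64 with gefitinib and 2.34 without, and that of GAPDH 1.57 and 0.97. In the 2D pair the actin values were -0.10 and -0.09 and the GAPDH values -0.04 and 0.01. The part of RNA integrity in these results was not tested.

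In A549, 0 of the 8 genes passed the test with gefitinib, and neither did any other tested gene (0% of 11926 by limma, with 1461 genes and 1 of the 8, DUSP6, at an unadjusted p under 0.05). The 8 estimates lay between -0.26 (DUSP6) and 0.01 (SPRED2), with a median of -0.12 against 0.04 for all tested genes. In the 2D pair all 8 were below 0 (-0.46 to -0.06) and in the 3D pair 5 of 8 (-0.13 to 0.18). A fall of 1 or more, such as those of 5 genes in HCC827 3D, lies outside the 95% interval of each of the 8 in A549, the lowest bound being -0.49 for DUSP6.

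The difference between responses was tested directly. The HCC827 3D response minus the A549 response was past the test and below 0 for 7 of the 8 genes, against 16.9% of all tested genes. DUSP6 again stood lowest of all, at -3.06 ± 0.18 (limma adjusted p = 2.07e-05). Among the 8, SPRED2 followed at -1.46 ± 0.17 (adjusted p = 0.000482), and SPRY1 was the least of the 7 at -0.50 ± 0.15 (adjusted p = 0.0396). After cyclic loess normalization SPRY1's difference was -0.35 and no longer passed (adjusted p = 0.144). With the probe set of largest variance for each gene 5 of 8 passed, SPRY4 standing at -0.18 (adjusted p = 0.504) and SPRY1 at an adjusted p of 0.05. SPRY2 differed by 0.22 (95% interval -0.17 to 0.61, adjusted p = 0.41). The HCC827 3D response minus the HCC827 2D response as labelled, from arrays that the 2 pairs do not share, was below 0 for the same 7 genes, against 19.3% of all tested genes. Here DUSP6 came to -6.96 ± 0.21 (adjusted p = 7.47e-08), SPRED2 to -3.00 ± 0.20 (adjusted p = 2.78e-06), DUSP5 to -2.72 ± 0.19 (adjusted p = 3.61e-06) and SPRY2 to 0.10 (95% interval -0.35 to 0.55, adjusted p = 0.753).

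Genes around the pathway were read from lists to set the 8 in context. Of 22 genes that ERK is known to induce, 20 were tested, and 17 fell and 1 was higher with gefitinib in HCC827 3D (median -1.25). Of all 11926 tested genes, 2433 fell and 803 were higher there. In HCC827 2D as labelled, 12 of the 20 were higher and 4 lower in the gefitinib array (median 0.76). Of all tested genes, 1188 were higher and 1484 lower in that pair. In A549 none of the 20 passed (median -0.06). The largest HCC827 3D differences were those of the transcription factor EGR1 (-2.27 in 3D, 1.52 in 2D), the ETS factor ETV5 (-1.79 and 2.52), the cyclin CCND1 (-1.78 and 2.51) and the chromatin protein HMGA2 (-1.75 and 2.59). HBEGF, a ligand of EGFR, was the 1 gene higher in 3D (1.48) and it fell in 2D (-3.20). It was picked out after its values were seen.

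Of 7 other phosphatases of the family that were listed, 5 were tested. With gefitinib in HCC827 3D 1 of the 5 fell (20.4% of all tested genes), DUSP9 (-0.58, limma adjusted p = 0.00781), a phosphatase of the cytoplasm. DUSP1, an inducible nuclear phosphatase, differed by 0.35 in 3D (adjusted p = 0.088) and fell by 1.74 in 2D (adjusted p = 1.63e-05), where DUSP4 and DUSP5 were higher. DUSP16, picked out after its values were seen, differed by 0.13 in 3D and fell by 0.88 in 2D (adjusted p = 0.000723). DUSP10 and DUSP8, which act mainly on JNK and p38 kinases, differed by -0.24 and -0.16 in 3D. The median of the 5 was -0.16 in 3D and -0.31 in 2D. SPRED3, the remaining SPRED gene, differed by -0.07 in 3D and 0.17 in 2D and passed in neither.

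Of 10 other feedback genes of EGFR and RAS that were tested, 4 fell and 1 was higher in HCC827 3D (median -0.16). Of all 11926 tested genes, 20.4% fell and 803 were higher there. ERRFI1, which blocks the EGFR kinase, differed by -1.64 in 3D (limma adjusted p = 4.23e-05) and 0.65 in 2D (adjusted p = 0.00956). RASAL1, CBL and IL17RD fell by 0.48, 0.47 and 0.46 on the log2 scale in 3D. In 2D as labelled 1 of the 10 feedback genes was higher and 0 lower (median -0.02), where 1188 and 1484 of all tested genes were. Of 16 cascade components tested, 4 fell and 2 were higher in 3D (median -0.05), where 20.4% of all tested genes fell. MAP2K1, which encodes the kinase that activates ERK, differed by -1.15 in 3D and 0.77 in 2D. RPS6KA3 (-0.65), EGFR (-0.55) and GRB2 (-0.45) were the others that fell in 3D. In 2D as labelled 2 of the 16 cascade components were higher and 2 lower (median -0.08). The 8 feedback genes and the ERK-induced list had medians below -1 in 3D, and the 3 other pathway lists between -0.16 and -0.05. The epithelial markers, which are no pathway list, also had a median of -1.04 in the HCC827 3D pair. There 4 of 5 fell with gefitinib (KRT8 by 1.18), against 20.4% of all tested genes, and LUM was higher (1.09). In 2D as labelled 2 of 5 epithelial markers were higher (KRT8 by 0.92), against 9.96% of all tested genes, and LUM fell by 1.45. VIM differed by -0.36 in the 3D pair (adjusted p = 0.143) and fell by 1.89 in the 2D pair (adjusted p = 3.2e-05). Against a mean of 6.63 to 6.77 for the arrays' background probe sets, the other fibroblast markers in HCC827 stood below it for DCN (6.16 to 6.27) and COL3A1 (5.95 to 6.18) and above it for COL1A1 (6.93 to 7.54) and PDGFRB (6.86 to 7.26). Their part in the result was not tested.

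**Figure D3:**
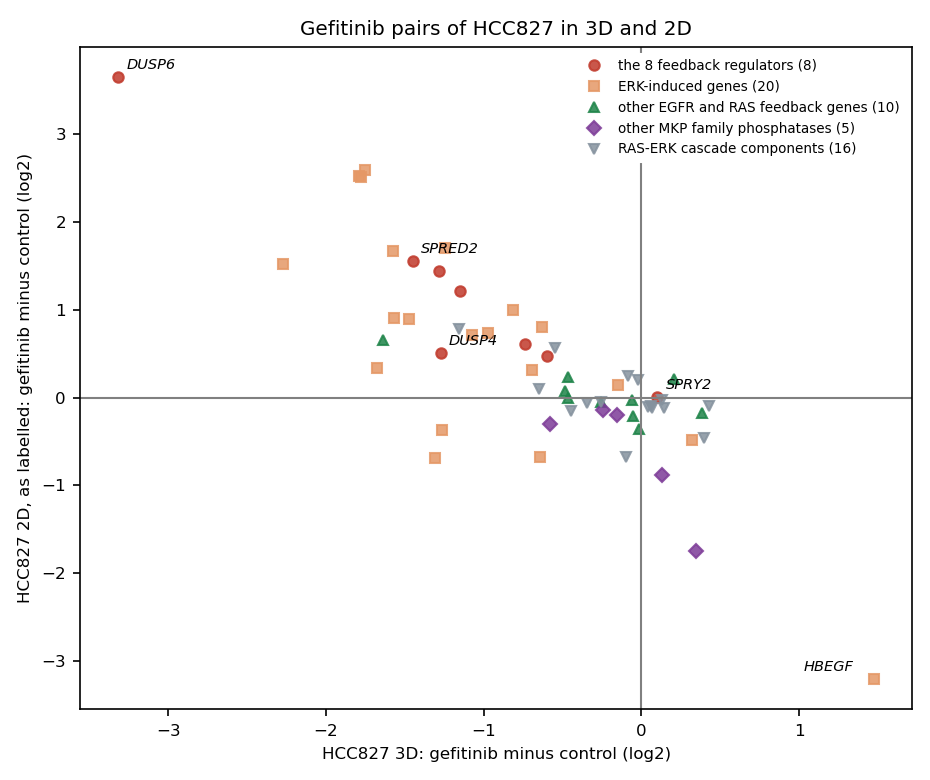
Gefitinib minus control in HCC827 3D (x axis, log2 difference) against the same in HCC827 2D as labelled (y axis) for the 8 regulators and the genes of 4 lists. The regulators and most ERK-induced genes lie at upper left, from DUSP6 at -3.32 and 3.64 to SPRY2 near 0, and HBEGF lies at lower right at 1.48 and -3.20. The 2 pairs share no array.

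Between the lines, DUSP4 was the member whose arrays did not overlap. Its 4 HCC827 values (7.26 to 8.53) all lay below its 4 A549 values (10.87 to 11.43), the mean difference was -3.20 ± 0.06 (limma adjusted p = 1.09e-11), and the 4 matched conditions gave -4.07, -2.89, -2.56 and -3.27. In this way 1 of the 8 members lay lower in all HCC827 arrays, against 18.2% of all tested genes, and 0 of the 8 lay higher in all of them, against 14.4%. All 8 members passed the test of HCC827 against A549, where 75% of all tested genes passed. With so large a share passing, the count of 8 says little about the members. Among them 2 were higher and 6 lower, where 35.8% and 39.2% of all tested genes were. The signs of DUSP6 and SPRY2 changed when both HCC827 2D arrays were left out and HCC827 3D was set against A549 3D only.

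The other members were each lower in HCC827 in some conditions, and SPRY4 and SPRED1 in all 4. Whether the line difference varied between conditions was not tested as such. HCC827 minus A549 was -1.58 for DUSP6 in 3D gefitinib, 1.67 in 3D control, 1.20 in 2D labelled gefitinib and -2.91 in 2D control, with a mean of -0.40 ± 0.07 (adjusted p = 0.000509). SPRED2 gave -1.67, -0.04, 0.40 and -1.30 in the same order, and SPRED1 -1.38, -0.32, -0.06 and -1.39. DUSP5 gave -1.92, -0.68, 0.06 and -1.67, and SPRY4 -1.07, -0.23, -0.03 and -0.78. SPRY1 gave 0.10, 0.57, 0.37 and -0.16, and SPRY2 0.02, -0.03, 0.64 and 0.34. DUSP4 itself varied by more than SPRED1, SPRY4, SPRY1 and SPRY2 over the 4 conditions. In the fit without both HCC827 2D arrays, HCC827 3D was set against A549 3D, so the A549 2D level also left the comparison. DUSP4 was then -3.48 (limma adjusted p = 1.51e-10), whereas DUSP6 stood at 0.04 (adjusted p = 0.726) and SPRY2 at 0.00 (adjusted p = 0.969). In that fit 6 of 8 passed, as did 8230 of all 11926 tested genes. In a fit with a gefitinib effect shared between cultures within a line, 1 of 8 passed, and 5736 of all 11926 tested genes.

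**Figure D4:**
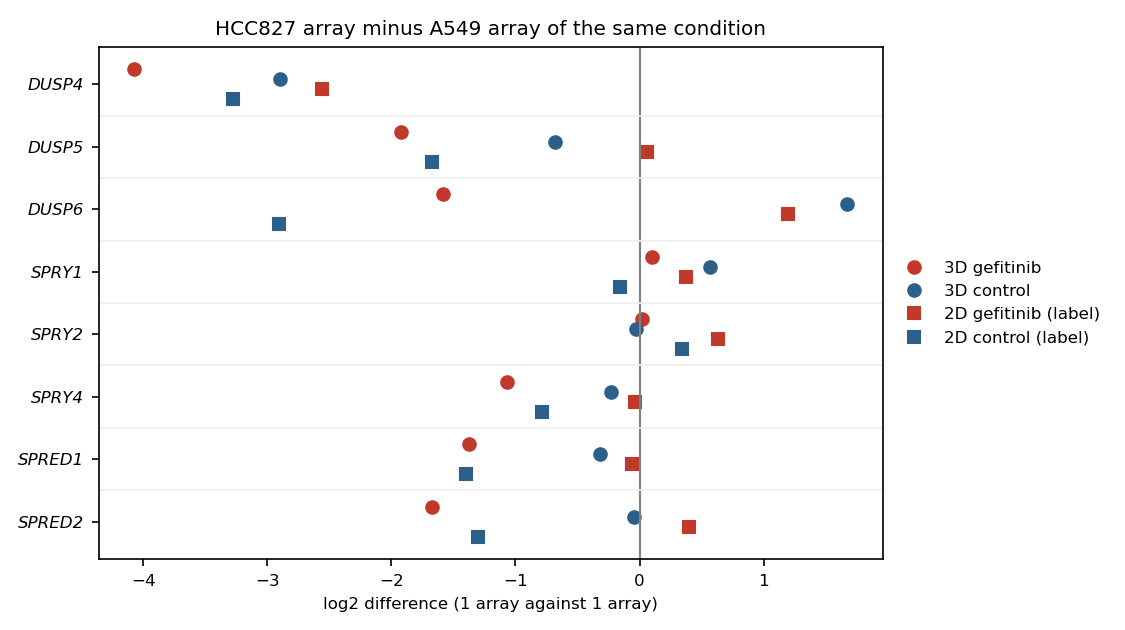
HCC827 minus A549 (x axis, log2 difference) for each of the 8 genes (y axis) in the 4 matched conditions, 1 array against 1 array. DUSP4 is negative in all 4 (-4.07 to -2.56), and DUSP6 runs from -2.91 to 1.67.

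In A549, 7 of the 8 genes differed between 3D and 2D arrays past the test. The 3D arrays were higher for 6 and lower for 1, where 41.7% and 22.4% of all tested genes were. The largest differences were DUSP6 0.53 ± 0.10 (limma adjusted p = 0.00123; 0.26 and adjusted p = 0.0815 as a mean of its probe sets), SPRY4 0.49 ± 0.09 (adjusted p = 0.001) and SPRED1 0.46 ± 0.09 (adjusted p = 0.000782). DUSP4 was 0.41 and SPRY1 0.35 higher. DUSP5 was 0.24 higher at the edge of the threshold (adjusted p = 0.0475), and with no filter on dim genes it did not pass (adjusted p = 0.0511). SPRED2 was -0.30 (adjusted p = 0.0204), and SPRY2 did not pass (0.15, adjusted p = 0.211). For 6 of the 8, both A549 3D values lay above both 2D values, as they did for 51.5% of all tested genes, and SPRED2 was the 1 gene with both below (28.2% of all tested genes). In a fit with a gefitinib effect shared between cultures 0 of 8 passed, and 2665 of all 11926 tested genes. SPRED1's 5 probe sets split in A549 3 above 0 and 2 below 0, SPRED2's 3 were all below 0, SPRY4's ran from -0.09 to 1.16, and the 3 other DUSP6 probe sets gave 0.00 to 0.29. The actin 3' to 5' difference was 1.74 and 1.67 in A549 3D and -0.14 and -0.05 in 2D, and its part in the result was not tested.

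In HCC827 the culture difference changed sign with the treatment label for all members but SPRY1 and SPRY2. This comes from the same HCC827 arrays as the opposite gefitinib pairs and is not a separate result. Between the control-labelled arrays, 3D minus 2D was 4.91 for DUSP6, 1.52 for SPRED1, 1.12 for SPRY1, 1.10 for DUSP5, 0.93 for SPRY4, 0.79 for SPRED2 and 0.73 for DUSP4, and -0.39 for SPRY2. Between the gefitinib-labelled arrays it was -2.21 for SPRED2, -2.05 for DUSP6, -1.62 for DUSP5, -1.05 for DUSP4, -0.84 for SPRED1, -0.42 for SPRY4 and -0.29 for SPRY2, and 0.05 for SPRY1. The mean over both labels had 4 members higher and 3 lower past the test, where 39.4% and 30.1% of all tested genes were, and it was largest for DUSP6 (1.43 ± 0.10, limma adjusted p = 1.03e-06), which gave 0.69 as a mean of its probe sets. SPRED1's mean difference of 0.34 was 0.03 as a mean of its probe sets and did not pass (adjusted p = 0.679). Without the pair of 2D arrays no culture comparison exists for HCC827. SPRY1 was the 1 member with both 3D values above both 2D values (40% of all tested genes) and SPRY2 the 1 with both below (27.2%). Here too the actin difference was 2.64 and 2.34 in 3D and -0.10 and -0.09 in 2D, and its part in the result was not tested.

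**Figure D5:**
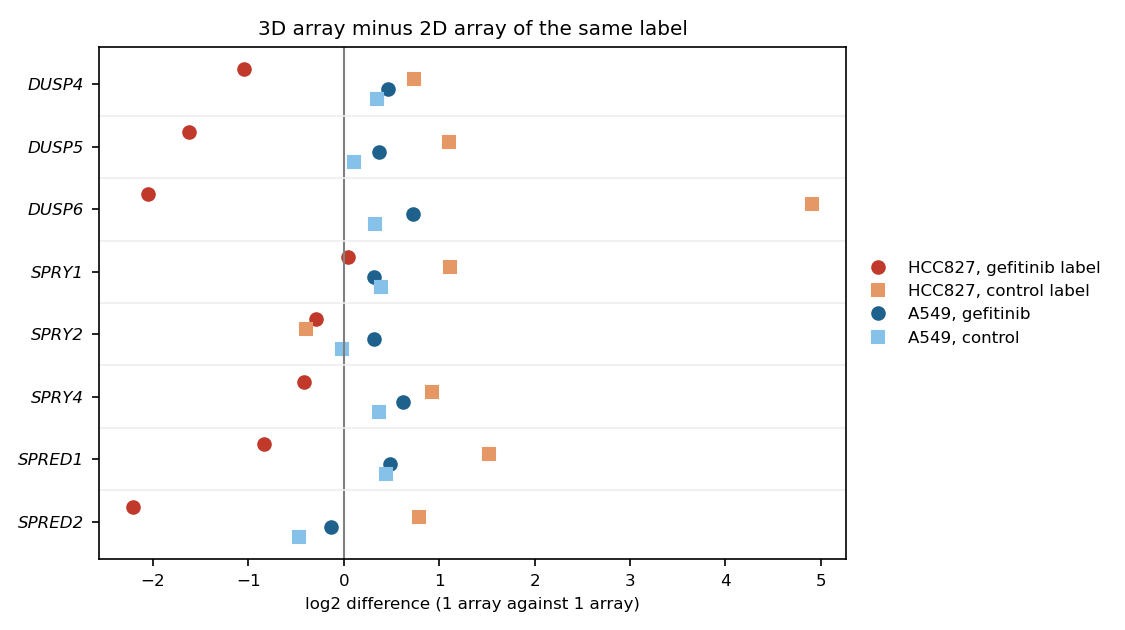
3D minus 2D (x axis, log2 difference) for each of the 8 genes (y axis), within HCC827 and within A549, for gefitinib-labelled and control-labelled arrays. The HCC827 control-labelled differences are above 0 for 7 of the 8 (DUSP6 4.91) and the gefitinib-labelled ones are below 0 for 7 of the 8 (SPRED2 -2.21).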

How the data were processed

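Gene expression was measured on 8 3' expression arrays. For 49495 probe sets the authors deposited a log2 value after RMA, and the submitters' processing notes name R 3.2.1. Array design and genome build are not given in the sources used here. The deposited log2 table was used as it stood. After 102 control probe sets, 45278 probe sets with 1 gene symbol were kept (1333 had several and 2782 were not listed), of which 45208 matched RefSeq symbols. The probe set with the highest mean stood for each of 18244 genes, and 11926 genes that exceeded the median of an array on 2 or more arrays entered the tests.

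A model of 7 coefficients (A549 mean, culture and gefitinib, and 1 mean for each HCC827 array) was run in limma 3.58.1 (R 4.3.3) using a variance trend and Benjamini-Hochberg adjustment over all tested genes, at an adjusted p under 0.05, two-sided. It was tested on simulated data. Members, gene lists and model were chosen with earlier results of these data known. Named genes are the 8 members, the 4 members of each list with the largest HCC827 3D difference, and checks of line and RNA, with exceptions stated. Alternatives changed the probe set, filter, normalization, variance prior, model and arrays.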

Additional observations from a re-analysis of the deposited data

Results flagged for a closer look

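The response to gefitinib differed between groups of arrays, by a test of the difference itself, for 7 of the 8 genes in each of 2 comparisons. Log2 differences of the HCC827 3D response minus the A549 response were -3.06 for DUSP6, -1.46 for SPRED2, -1.12 for DUSP4, -1.11 for DUSP5, -1.04 for SPRED1, -0.72 for SPRY4 and -0.50 for SPRY1. The HCC827 3D response minus the HCC827 2D response as labelled was -6.96 for DUSP6, -3.00 for SPRED2, -2.72 for DUSP5, -2.36 for SPRED1, -1.78 for DUSP4, -1.34 for SPRY4 and -1.07 for SPRY1. SPRY2 was not past the test in either. Each HCC827 response rests on 1 pair of arrays.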

How the results depend on the processing

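No paired analysis was possible because each condition had 1 array and the labels carry no replicate numbers. Of 504 values of the 8 genes under other probe sets, filters, normalizations and variance priors, 487 kept direction and side of the threshold, 12 lost the call and 5 changed sign. In the 4 comparisons of gefitinib in HCC827 3D or 2D, 246 of 252 kept both and 6 lost the call, 4 of them for SPRY4 with its probe set of largest variance and 2 for SPRY1. As a mean of probe sets SPRY4 did not pass the filter. With 6 coefficients (the gefitinib effect shared between cultures within a line), the count of members past the threshold was 1 for HCC827 against A549, 0 for 3D against 2D in HCC827 and 0 for 3D against 2D in A549. Sign changes: SPRY4's line difference was 0.33 with its probe set of largest variance. With cyclic loess, DUSP4's culture difference in HCC827 was 0.027, and the A549 gefitinib differences were 0.012 for SPRY4 and -0.031 for SPRED2. With array medians set equal SPRY4's A549 gefitinib difference was 0.001. Settings chosen after seeing the data: without both HCC827 2D arrays the line difference, then HCC827 3D against A549 3D, was 0.044 for DUSP6 and -0.0049 for SPRY2. In HCC827 culture, the control-labelled arrays gave 0.73 for DUSP4, 1.10 for DUSP5 and 0.79 for SPRED2, and the gefitinib-labelled arrays gave -2.05 for DUSP6, -0.42 for SPRY4 and -0.84 for SPRED1. These settings called 8 members (7 higher) and 6 members (0 higher), and 6952 and 7717 of all 11926 tested genes. Over all tested genes, 6 coefficients called 5736 for the line, 3986 and 2665 for culture in HCC827 and in A549, against 8945, 8290 and 7644 as reported. The HCC827 3D response minus that of A549 had 2442 genes as reported and 1559 with cyclic loess, and gefitinib in A549 had 0 and, with array medians set equal, 55. Causes were not tested.

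With 1 array left out at a time, the line, culture and A549 gefitinib comparisons could be tested only with 6 coefficients, so these ranges change the model and the arrays together, and the same model on all arrays gave 1, 0, 0 and 0. The count of members past the threshold ranged from 1 to 7 for HCC827 against A549, from 0 to 8 for 3D against 2D in HCC827, from 0 to 7 for 3D against 2D in A549, was 0 for gefitinib in A549, and, with 7 coefficients, was 7 in each HCC827 gefitinib comparison that could be fitted. Over all 11926 tested genes the same fits called 1838 to 8584, 0 to 7719, 0 to 7648 and 0. With 7 coefficients they called 3235 to 3242 genes in HCC827 3D and 2666 to 2675 in HCC827 2D. For the HCC827 3D response minus that of A549 they called 2442 to 2443. Line differences ranged from -2.14 to 1.34 for DUSP6, from -0.045 to 0.49 for SPRY1 and from -1.41 to 0.094 for SPRED2. HCC827 culture differences ranged from -1.05 to 0.73 for DUSP4, -1.62 to 1.10 for DUSP5, -2.05 to 4.91 for DUSP6, -0.42 to 0.93 for SPRY4, -0.84 to 1.52 for SPRED1 and -2.21 to 0.79 for SPRED2. In A549, SPRY2's culture difference ranged from -0.018 to 0.32, and gefitinib differences from -0.29 to 0.051 for SPRY2, -0.14 to 0.10 for SPRY4 and -0.15 to 0.18 for SPRED2. In the fit with 7 coefficients, leaving out an HCC827 array cannot change the estimates of the other HCC827 pair. Without an A549 array that fit has no residual degree of freedom and gives no test. Dim probe sets such as those of SPRY4 limit what these arrays show.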

Other observations

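The 5 genes whose pattern over the 8 arrays was most like that of DUSP6, members left out, were TAF4 (Pearson r 0.958), GCHFR (0.953), GEN1 (0.951), SUV39H1 (0.947) and GLE1 (0.933). These correlations are a description over 8 arrays of 2 lines that share line and culture effects. Among the members, SPRED1 came closest to DUSP6 (0.83), then SPRY4 (0.76), SPRY1 (0.75), DUSP5 (0.68) and SPRED2 (0.62), and DUSP4 (0.32) and SPRY2 (-0.33) were furthest. GCHFR, which encodes a regulator of the first enzyme of tetrahydrobiopterin synthesis, read 7.12 in HCC827 3D gefitinib against 8.59 in its control, and 8.28 in HCC827 2D labelled gefitinib against 7.03 in its control.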
